A study of Mus musculus with 14 samples.

Results

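Histones are acetylated on lysines of their tails by acetyltransferases and deacetylated by histone deacetylases, and the acetylated tails are bound by bromodomain proteins and go along with open, transcribed chromatin. A transferred somatic nucleus meets the acetyltransferases that the egg has stored, and after genome activation those that the embryo transcribes. Trichostatin A (TSA), an inhibitor of histone deacetylases, acts on the opposite side of this balance, while vitamin C (VC) is a cofactor of the iron-dependent dioxygenases that demethylate histones and oxidise methylcytosine. The genes described here are 10 histone acetyltransferases, taken by name out of 20242 genes with a symbol: Crebbp and Ep300, Kat2a and Kat2b, the MYST family of Kat5, Kat6a, Kat6b, Kat7 and Kat8, and the cytoplasmic enzyme Hat1. All 10 were present in the deposited values, and the RPKM values (reads scaled to the length of the transcript and to the reads counted in the library) of the RefSeq entries of a gene were summed.

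The series consists of 14 single mouse embryos from somatic cell nuclear transfer (SCNT), sequenced at the two-cell stage with 1 library per embryo made from part of its RNA. All embryos were of the B6D2F1 background, received cumulus cell nuclei, were activated with strontium in the presence of cytochalasin B, were cultured with deionized bovine serum albumin and were collected at 28 h, when the zona pellucida was removed. Control embryos (3) received neither agent. VC(0-8h) (1 embryo) and VC(8-15h) (2 embryos) received 10 µg/ml VC from 0 to 8 h or from 8 to 15 h of activation and culture. TSA(0-8h) (3 embryos) received 50 nM TSA from 0 to 8 h. TSA(0-8h)+VC(0-8h) (2 embryos) and TSA(0-8h)+VC(8-15h) (3 embryos) received that TSA treatment together with VC in the early or in the late window. A two-cell embryo holds stored RNA of the egg as well as its own transcripts, and these could not be told apart, nor could fewer transcripts of a gene be told apart from more RNA of other genes. Per the study, separate nuclear transfer experiments gave the embryos of TSA(0-8h)+VC(8-15h). For the other groups this is not given in the sources used here, and p-values measure the spread between the embryos sequenced.

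Between 3021540 and 13589389 reads were counted per embryo, and 9930 to 46909 of them fell on the 10 genes. For a transcript of 1 kb, 3 reads came to between 0.221 and 0.993 RPKM, so that a lower value was not measurable in every library. Reads were amplified by PCR without molecular identifiers, so such floors cover counting error only. Of 16 oocyte and two-cell markers, 3 were at 1 RPKM or more in all 14 embryos (Bmp15, Oosp1 and Btg4). Others were read less widely, such as Ooep at this level in 3 embryos and Zar1 in 2. Of 16 markers of cumulus and granulosa cells, 14 stayed under 1 RPKM in every embryo, and their summed level was 0 to 2.03 RPKM. Libraries carried the lane numbers 3 (5 embryos), 4 (6 embryos) and 5 (3 embryos) in their identifiers. Control replicate 2 was the control embryo with the fewest genes at 1 RPKM or more, 3576 against 4827 and 4979.

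Of the 10 acetyltransferase genes, 4 were read at 1 RPKM or more in all 14 embryos, against 845 of the 11195 genes that reached this level in any embryo (7.55%). These 4 were the coactivator pair Crebbp and Ep300 and the MYST pair Kat6a and Kat6b. Kat7 reached 1 RPKM in 12 embryos. The others did so in 7 embryos (Kat5), 5 (Kat2a and Kat2b), 4 (Hat1) or 3 (Kat8).

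**Figure D1:**
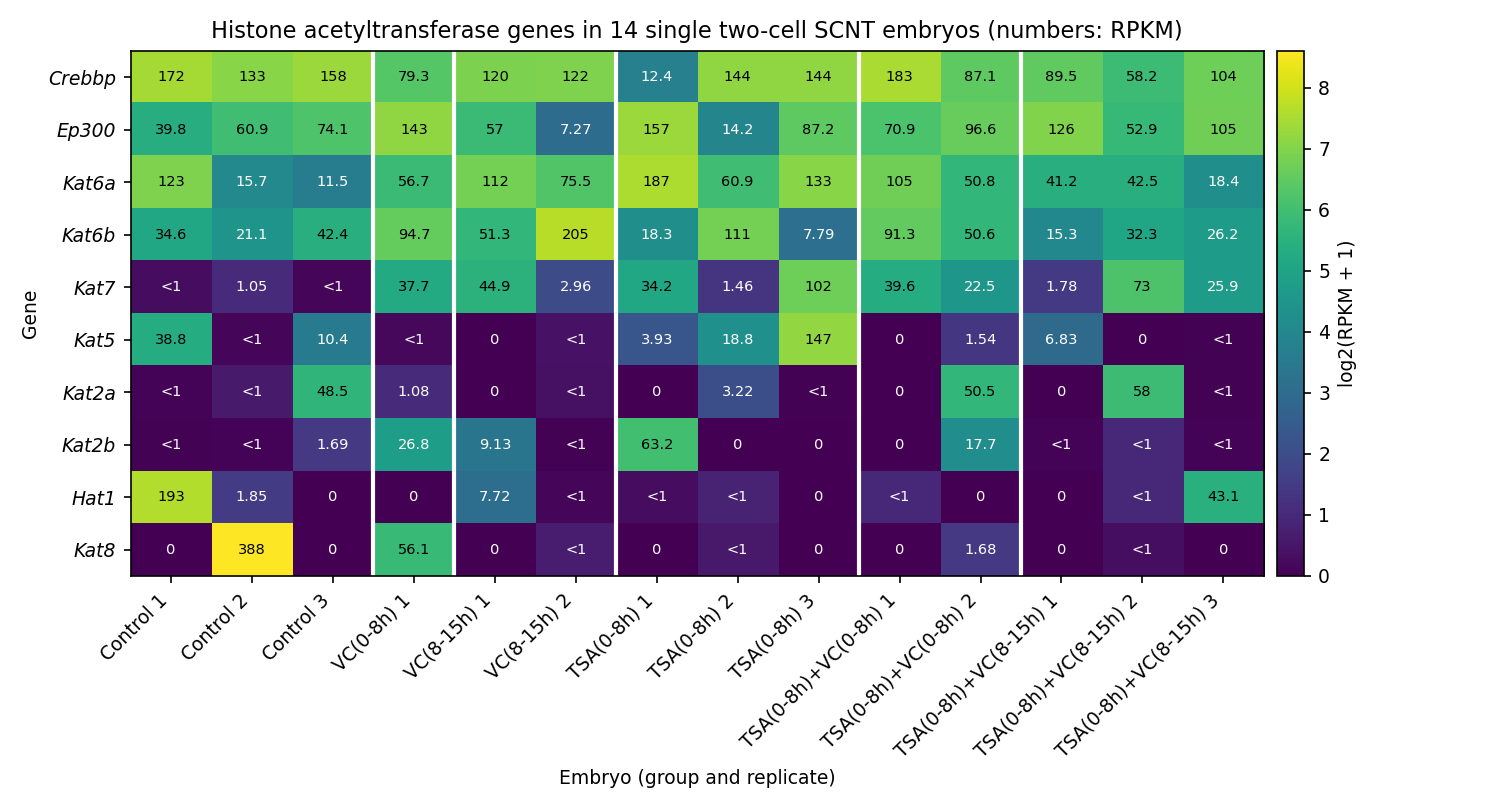
RPKM of the 10 histone acetyltransferase genes (rows, ordered by the number of embryos at 1 RPKM or more) in the 14 single embryos (columns, white lines between groups), coloured by log2(RPKM + 1) and printed as RPKM. Crebbp, Ep300, Kat6a and Kat6b were between 7.27 and 205 RPKM in every embryo, while the lower 5 rows alternate between values listed at 0 and values of up to 388 RPKM.

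Crebbp and its paralogue Ep300 encode CBP and p300, coactivators that acetylate histones at enhancers and promoters. Crebbp (chromosome 16, 4084048 to 4213404 of mm9, reverse strand) had the highest median of the 10 genes, 121 RPKM over the 14 embryos. It was at 172, 133 and 158 RPKM in the control embryos, 79.3 in VC(0-8h), 120 and 122 in VC(8-15h), 12.4, 144 and 144 in TSA(0-8h), 183 and 87.1 in TSA(0-8h)+VC(0-8h), and 89.5, 58.2 and 104 in TSA(0-8h)+VC(8-15h). TSA(0-8h) replicate 1 stood apart at the low end, with 282 reads, and the next lowest embryo, TSA(0-8h)+VC(8-15h) replicate 2, was at 58.2 RPKM. All control embryos and 5 of the 11 treated embryos were at 120 RPKM or more, a level picked after seeing the values. Control and treated embryos overlapped, and the share of all genes with such a split is not given.

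Ep300 (chromosome 15, 81415781 to 81482507, forward strand) had a median of 72.5 RPKM. It was at 39.8, 60.9 and 74.1 RPKM in the control embryos, 143 in VC(0-8h), 57.0 and 7.27 in VC(8-15h), 157, 14.2 and 87.2 in TSA(0-8h), 70.9 and 96.6 in TSA(0-8h)+VC(0-8h), and 126, 52.9 and 105 in TSA(0-8h)+VC(8-15h). Its highest embryo, TSA(0-8h) replicate 1, was the embryo with the lowest Crebbp. Over the 14 embryos the levels of the paralogues ran against each other, with Spearman's rho of -0.52 and Pearson's r of -0.41, a description of 14 libraries in which a higher share for any gene lowers that of the others. Among the 10 genes, Crebbp had the highest value in 4 embryos and Ep300 in another 4. Only 1 gene can lead an embryo, so these counts do not bear on how the paralogues relate. In TSA(0-8h)+VC(8-15h) replicate 3, for example, Ep300 led at 105 RPKM and Crebbp followed at 104.

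Kat6a and Kat6b (MOZ and MORF) are catalytic subunits of complexes built on the Brpf scaffolds, which acetylate histone H3. Kat6a (chromosome 8, 23970007 to 24053731, forward strand) was at 123, 15.7 and 11.5 RPKM in the control embryos, 56.7 in VC(0-8h), 112 and 75.5 in VC(8-15h), 187, 60.9 and 133 in TSA(0-8h), 105 and 50.8 in TSA(0-8h)+VC(0-8h), and 41.2, 42.5 and 18.4 in TSA(0-8h)+VC(8-15h). The control embryos thus held both the lowest 2 values of the series and the third highest. Kat6b (chromosome 14, 22319076 to 22491354, forward strand) was at 34.6, 21.1 and 42.4 RPKM in the control embryos, 94.7 in VC(0-8h), 51.3 and 205 in VC(8-15h), 18.3, 111 and 7.79 in TSA(0-8h), 91.3 and 50.6 in TSA(0-8h)+VC(0-8h), and 15.3, 32.3 and 26.2 in TSA(0-8h)+VC(8-15h). All 5 embryos that received VC alone or together with TSA in the early window were at 50.6 RPKM or more, and of the other 9 only TSA(0-8h) replicate 2 was. This grouping was made after seeing the values and leaves out TSA(0-8h)+VC(8-15h), and the share of all genes that part in this way is not given.

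Part of the Kat6b sum rested on few reads. The entry NM_017479, with a counted length of 7322 bases, held 37297 of the 37333 Kat6b reads. The entry NM_001205241 held the other 36 reads on a counted length of 52 bases, so that 2 to 16 reads came to between 5.85 and 72.2 RPKM. Its reads were found in the 6 embryos of lane 4 and in none of the other 8 embryos. In the VC(0-8h) embryo NM_017479 alone was at 22.4 RPKM, against 94.7 RPKM for the sum, and in control replicate 2 it was at 7.04 RPKM against 21.1. The VC(0-8h) embryo thus stood among the high embryos for Kat6b through 16 reads of the short entry. In TSA(0-8h)+VC(0-8h) replicate 2 the long entry alone was at 44.7 RPKM, close to control replicate 3 at 42.4.

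The SD of log2(RPKM + 1) over the 14 embryos was 0.96 for Crebbp, 1.19 for Kat6a, 1.20 for Ep300 and 1.24 for Kat6b. For Kat7, which was under 1 RPKM in 2 embryos, it was 2.36. A gene at 1 RPKM or more in every embryo holds no value near 0, which limits its SD.

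Kat7 (HBO1) joins the Brpf or Jade scaffolds and is known for acetylation of histones and for a role at replication origins. Among the members, only Kat7 had no overlap between the control embryos and all treated embryos. Kat7 (chromosome 11, 95135573 to 95171560, reverse strand) was at 0.216, 1.05 and 0.111 RPKM in the control embryos, from 7, 43 and 9 reads. It was at 37.7 RPKM in VC(0-8h), 44.9 and 2.96 in VC(8-15h), 34.2, 1.46 and 102 in TSA(0-8h), 39.6 and 22.5 in TSA(0-8h)+VC(0-8h), and 1.78, 73.0 and 25.9 in TSA(0-8h)+VC(8-15h). The 3 control embryos were the lowest of the 14, and every one of the 11 treated embryos lay above them. The share of all genes that part in this way is not given, so how unusual this is cannot be judged here. Within the treated embryos, 8 were at 22.5 RPKM or more, and 3 (VC(8-15h) replicate 2, TSA(0-8h) replicate 2 and TSA(0-8h)+VC(8-15h) replicate 1) were at 1.46 to 2.96 RPKM, close to control replicate 2. The summed level of 8 two-cell activation markers, such as Zfp352 and Tcstv1, was 4.96, 64.2 and 286 RPKM in the control embryos, given from lowest to highest, and 39.1 to 470 RPKM in the treated ones. These ranges overlapped, and the part of such a difference between embryos in the Kat7 values was not tested.

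Kat5 (TIP60), the catalytic subunit of the NuA4 complex that acetylates histones H4 and H2A and takes part in the response to DNA damage, was read mainly in embryos without VC. Kat5 (chromosome 19, 5603017 to 5610050, reverse strand) was at 38.8, 0.0785 and 10.4 RPKM in the control embryos and at 3.93, 18.8 and 147 RPKM in TSA(0-8h). With VC it was at 0.127 RPKM in VC(0-8h), 0 and 0.341 in VC(8-15h), 0 and 1.54 in TSA(0-8h)+VC(0-8h), and 6.83, 0 and 0.0439 in TSA(0-8h)+VC(8-15h). Of the 6 embryos without VC, 5 exceeded 1 RPKM, and of the 8 embryos with VC, 2 did. The groups overlapped, since TSA(0-8h)+VC(8-15h) replicate 1, with VC, was above control replicate 2 and TSA(0-8h) replicate 1. The 1.54 RPKM of TSA(0-8h)+VC(0-8h) replicate 2 rested on 9 reads of the entry NM_001199249 (587 bases), and with the leading entry alone it was at 0.370 RPKM, which leaves 1 of the 8 embryos with VC above 1 RPKM.

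Kat2a (GCN5) and Kat2b (PCAF) are alternative catalytic subunits of the SAGA and ATAC coactivator complexes, which acetylate histone H3. Kat2a (chromosome 11, 100566060 to 100573779, reverse strand) was abundant in 3 embryos of different groups, at 48.5 RPKM in control replicate 3, 50.5 in TSA(0-8h)+VC(0-8h) replicate 2 and 58.0 in TSA(0-8h)+VC(8-15h) replicate 2. TSA(0-8h) replicate 2 was at 3.22 RPKM and the VC(0-8h) embryo at 1.08, and the remaining 9 embryos were under 1 RPKM. Of the 3.22 RPKM, 2.80 came from the entry NM_001038010, which was above 0 in this embryo only. The smallest numbers that fit it are 3 reads on 137 bases, and multiples of both fit as well. The leading entry alone was at 0.420 RPKM, which leaves 4 embryos at 1 RPKM or more. Kat2b (chromosome 17, 53706186 to 53812045, forward strand) was highest in TSA(0-8h) replicate 1, at 63.2 RPKM. It was at 26.8 RPKM in VC(0-8h), 17.7 in TSA(0-8h)+VC(0-8h) replicate 2, 9.13 in VC(8-15h) replicate 1 and 1.69 in control replicate 3. The other 9 embryos were under 1 RPKM, so that no group of 2 or more embryos had either gene at 1 RPKM in each of them.

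Hat1, which acetylates newly made histone H4 before it is assembled into chromatin, was abundant in 2 embryos only. Hat1 (chromosome 2, 71227015 to 71279679, forward strand) was at 193 RPKM in control replicate 1, where it exceeded every other acetyltransferase gene, and at 43.1 in TSA(0-8h)+VC(8-15h) replicate 3. VC(8-15h) replicate 1 followed with 7.72 RPKM and control replicate 2 with 1.85, and the remaining 10 embryos were under 1 RPKM. Kat8 (MOF), which acetylates histone H4 in the MSL and NSL complexes, had the highest single value of all, 388 RPKM from 4008 reads in control replicate 2. Kat8 (chromosome 7, 135056031 to 135069346, forward strand) was at 56.1 RPKM in VC(0-8h) and 1.68 in TSA(0-8h)+VC(0-8h) replicate 2. VC(8-15h) replicate 2, TSA(0-8h) replicate 2 and TSA(0-8h)+VC(8-15h) replicate 2 were at 0.607, 0.511 and 0.257 RPKM, and Kat8 was listed at 0 in the 8 other embryos.

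The number of embryos with a transcript followed its length. The 4 genes read in every embryo had the longest counted exons of the 10, 7322 to 9126 bases, and Kat8, Hat1 and Kat5 had the shortest, 1503 to 1855 bases. Spearman's rho between counted length and number of embryos was 0.93 over the 10 genes and 0.21 over all 11195 genes, a description across genes of the same 14 libraries. Among all genes, the share at 1 RPKM or more in every embryo was 4.33% under 2000 bases, 6.85% from 2000 to 4000, 10.1% from 4000 to 6000 and 13.9% above. The part of length in the presence of the long members was not tested.

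**Figure D2:**
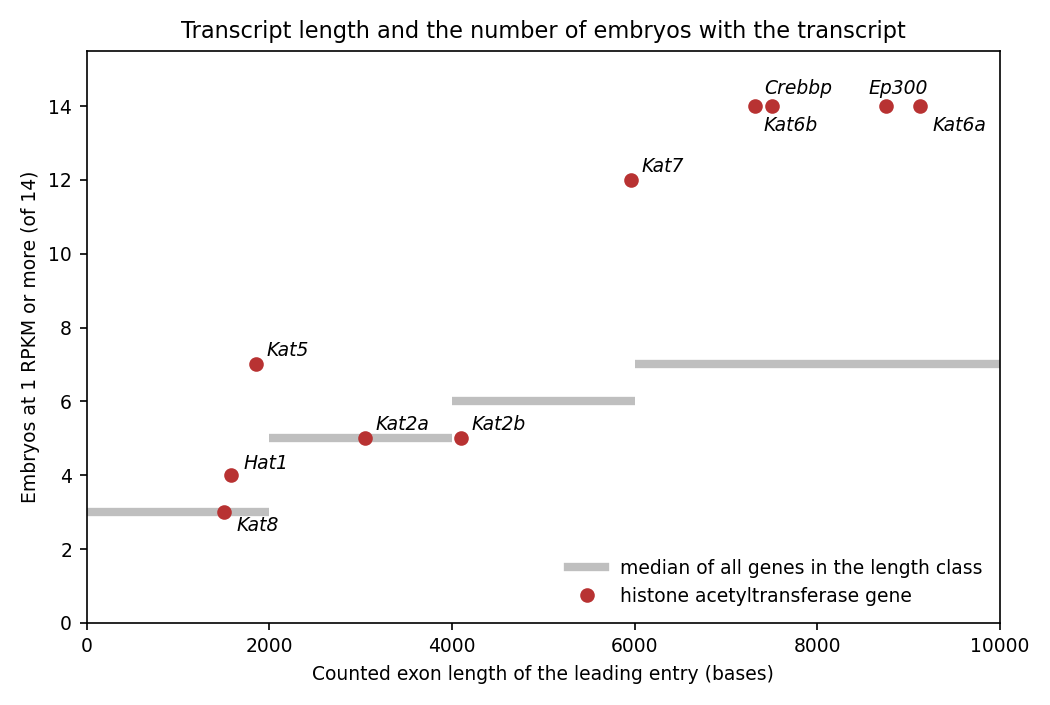
Counted exon length of the leading entry of each of the 10 genes (x axis, bases) and the number of the 14 embryos at 1 RPKM or more (y axis). Grey bars give the median over all genes of a length class, 3 embryos under 2000 bases and 7 above 6000, and the 5 longest acetyltransferase genes lie above their bars, as do the short Kat5 and Hat1, while Kat8 and Kat2a lie on theirs and Kat2b below.

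Low values of these genes kept to the lane of a high value. Of the 140 gene and embryo values, 92 were at 1 RPKM or more, 25 lay between 0 and 1 RPKM and 23 were 0. In 24 of the 25 low values, another embryo of the same lane had the gene at 1 RPKM or more, and so it did for 11 of the 23 zeros. Kat8 was above 0 in all 6 embryos of lane 4, where control replicate 2 had 4008 reads, and at 0 in all 8 embryos of the other lanes. In lane 5, Kat2a had 2009 reads in control replicate 3 and 2 reads in the other 2 embryos together. Over the series, 1130 genes were at 10 RPKM or more in 1 embryo and under 1 RPKM in the others. These were above 0 in 49.1% of the other embryos of the same lane and in 14.9% of those of other lanes. The part of the lane in the low values, the control values of Kat7 among them, was not tested, and the text gives values under 1 RPKM as read.

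The summed level of the 10 genes was lowest in TSA(0-8h)+VC(8-15h). It was 281, 319 and 322 RPKM in these embryos, 601, 622 and 346 in the control embryos, 495 in VC(0-8h), 402 and 415 in VC(8-15h), 476, 356 and 620 in TSA(0-8h), and 491 and 379 in TSA(0-8h)+VC(0-8h). The 3 embryos of the combined treatment were thus below the 11 others, the nearest of which was control replicate 3. How often sums of other genes part in this way is not given. Over all genes tested, the median difference in log2(RPKM + 1) of this group was 0.78 from control embryos and 1.21 from TSA(0-8h). With no filter on low values these medians were 0.020 and 0.065, and without control replicate 2 the first was -0.020. The part of such shifts in the lower sums was not tested. The sum depended on single genes, as Kat8 made up 62.4% of it in control replicate 2, Hat1 32.1% in control replicate 1 and Kat5 23.6% in TSA(0-8h) replicate 3. Over the 4 genes read in every embryo, the sum was 272, 186 and 253 RPKM with TSA(0-8h)+VC(8-15h) and 369, 230 and 286 in the control embryos, and these ranges overlapped.

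**Figure D3:**
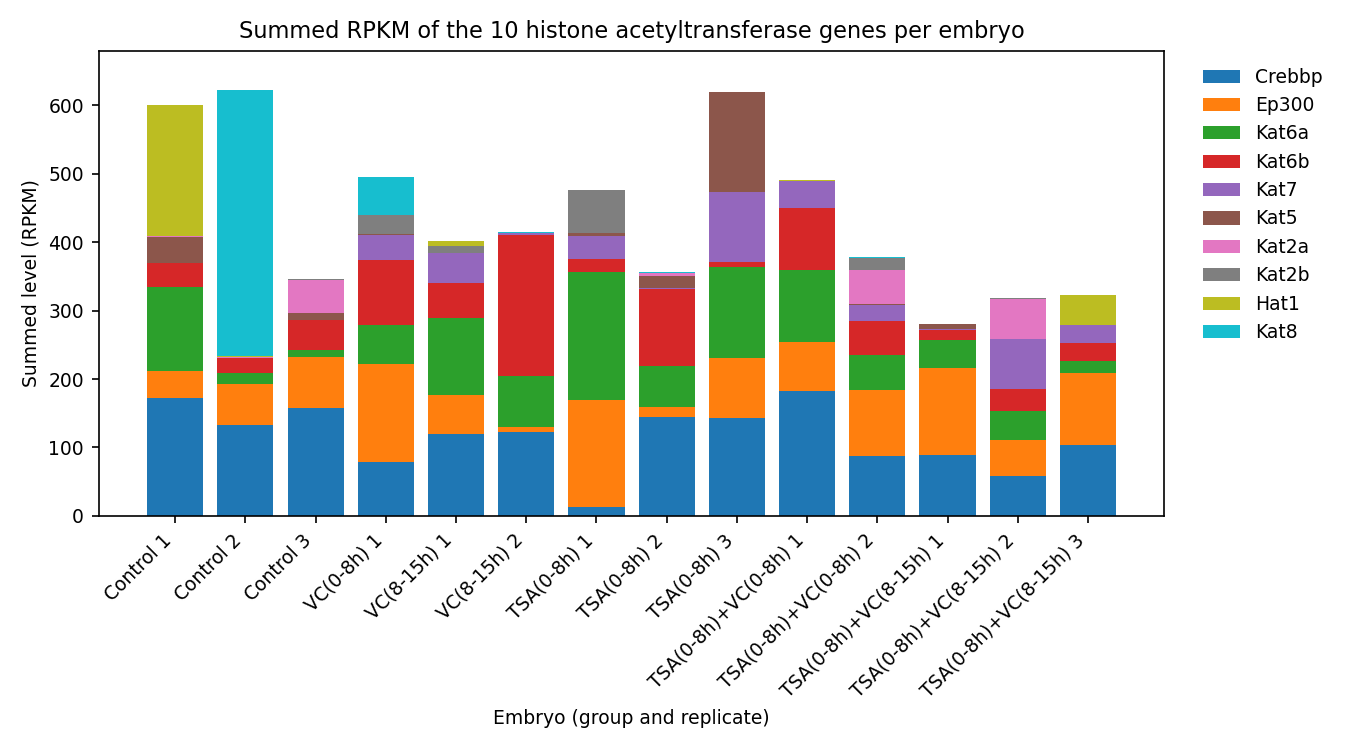
Summed RPKM of the 10 histone acetyltransferase genes (y axis) in each embryo (x axis), stacked by gene. The TSA(0-8h)+VC(8-15h) embryos, at 281 to 322 RPKM, are the lowest, and the high bars of control replicates 1 and 2 and TSA(0-8h) replicate 3 contain a large block of Hat1, Kat8 or Kat5.

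The combined treatment was compared with the control embryos with limma on log2(RPKM + 1), over the genes at 1 RPKM or more in all 3 embryos of either group. Of the 10 genes, 5 entered this test, and none of them passed an adjusted p-value of 0.05, as was the case for all 3297 genes tested (0%). With limma-voom on recovered reads 295 genes passed and without control replicate 2 it was 75, in either case without an acetyltransferase gene. At an unadjusted p-value under 0.05, 1 of the 5 was found, against 585 of all genes tested (17.7%), or 14% in the same direction. Of these 585 genes 461 were higher, and with median-ratio scaling 317 of 515 were. Without control replicate 2 it was 380 of 732. The acetyltransferase gene found was Kat7, with a mean log2(RPKM + 1) of 4.14 after TSA(0-8h)+VC(8-15h) and 0.49 in control embryos. The difference was 3.65 (SE 1.34, unadjusted p = 0.0148, limma adjusted p = 0.150), and all 3 treated embryos lay above all control embryos, as they did for 15.7% of the genes tested. Kat7 entered this test through the treated group alone. It was 1.19, 5.17 and 4.60 higher in the embryos of lanes 3, 4 and 5.

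Crebbp was the other gene whose groups did not overlap, with a mean log2(RPKM + 1) of 6.37 against 7.27 in control embryos. The difference of -0.90 (SE 0.89, limma adjusted p = 0.649) was close to its error, and 5.7% of the genes tested were lower without overlap. It was -0.94, -1.17 and -0.59 in lanes 3, 4 and 5. For Ep300 (0.64), Kat6a (0.16) and Kat6b (-0.40) the limma adjusted p-values were 0.793 to 0.970 and the groups overlapped. Over the 5 genes the median difference was 0.16, and over all genes tested it was 0.78 (0.020 with no filter, -0.020 without control replicate 2). With median-ratio scaling, which brought the latter to 0.10, Kat7 was 2.91 higher, Crebbp differed by -1.71, and Ep300 and Kat6a turned to -0.16 and -0.63.

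**Figure D4:**
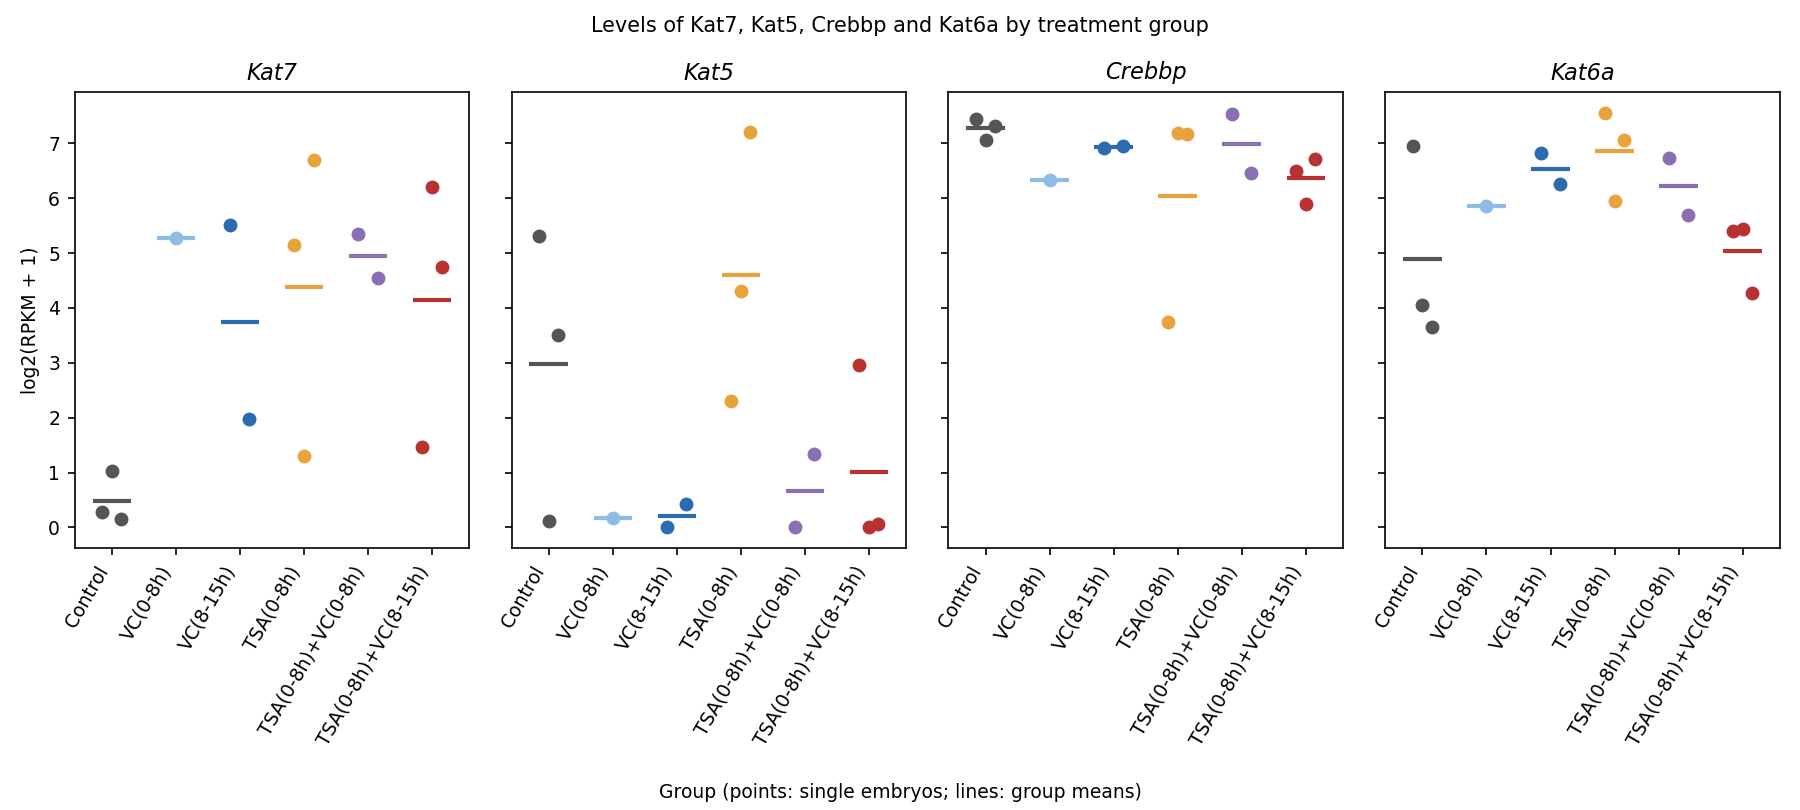
Levels of Kat7, Kat5, Crebbp and Kat6a as log2(RPKM + 1) (y axis) in the 6 groups (x axis), with 1 point per embryo and a line at the group mean. The 3 control embryos are the lowest for Kat7, and Kat5 is close to 0 in 6 of the 8 embryos that received VC.

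TSA(0-8h) alone was compared with the control embryos in the same way, which asks for the response to the deacetylase inhibitor. Of the 6 acetyltransferase genes tested, none passed the adjusted threshold, and the same held for the 2471 genes tested (0%). With limma-voom 132 genes passed and without control replicate 2 it was 274, none of them an acetyltransferase gene. At an unadjusted p-value under 0.05, 1 of the 6 was found against 14.9% of all genes, or 5.5% in the same direction (136 of 368 genes, and 176 of 361 with median-ratio scaling), and again it was Kat7. Its mean log2(RPKM + 1) was 4.38 with TSA(0-8h) against 0.49, a difference of 3.89 (SE 1.51, unadjusted p = 0.0153, limma adjusted p = 0.201). The groups did not overlap, as for 6.64% of all genes in this direction. Within lanes 3, 4 and 5 Kat7 differed by 4.86, 0.26 and 6.54, so that lane 4 held little of it. Both comparisons use the same 3 control embryos, and Kat7 entered both tests through the treated embryos. Kat6a was 1.97 higher (SE 1.50, limma adjusted p = 0.595), in the same direction within each lane (0.61, 1.89 and 3.42), and its groups overlapped. Crebbp differed by -1.23 (SE 1.28, limma adjusted p = 0.733), which came from 1 embryo, as lanes 4 and 5 gave 0.12 and -0.13. Ep300, Kat5 and Kat6b had limma adjusted p-values of 0.795 to 0.993.

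VC(8-15h) after TSA was compared with TSA(0-8h) alone. None of the 6 acetyltransferase genes tested, and none of the 3115 genes tested (0%), passed the adjusted threshold. With limma-voom 254 genes passed, and without TSA(0-8h)+VC(8-15h) replicates 1, 2 or 3 the count was 201, 295 or 288, again without an acetyltransferase gene. Kat6a was lower in all 3 embryos that received VC than in any that did not, a separation found in this direction for 3.47% of the genes tested. Its mean log2(RPKM + 1) was 5.04 against 6.86, a difference of -1.82 (SE 1.21, limma adjusted p = 0.472), and within lanes 3, 4 and 5 it was -2.16, -0.51 and -2.78. Kat5 differed by -3.60 (SE 1.59, unadjusted p = 0.0396, limma adjusted p = 0.240), with means of 1.01 and 4.61. It was the 1 gene of the 6 under an unadjusted p-value of 0.05, against 18.3% of all genes, or 2.18% in its direction. Of all genes under this p-value, 68 of 569 were lower, and with median-ratio scaling 218 of 508 were. Its groups overlapped, it entered the test through the TSA(0-8h) embryos alone, and within lanes 3, 4 and 5 it differed by 0.67, -4.31 and -7.14. The median difference was -0.18 over the 6 genes and 1.21 over all genes tested (0.065 with no filter on low values). With median-ratio scaling, which brought the latter to 0.06, Kat6a differed by -3.10 and Kat5 by -4.33.

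To use the embryos of every treatment, TSA and VC were fitted together over the 14 embryos, with 4988 genes at 1 RPKM or more in at least 6 embryos. For TSA (8 embryos with, 6 without), none of the 6 acetyltransferase genes and none of the 4988 genes (0%) passed the adjusted threshold, and 295 genes (5.91%) but none of the 6 had an unadjusted p-value under 0.05, while limma-voom passed 2 genes. Differences ran from -0.93 (Kat6b, SE 0.99) to 1.84 (Kat7, SE 1.33), with limma adjusted p-values of 0.950 or more. For VC in either window (8 embryos with, 6 without), 1 of the 4988 genes (0.02%) passed, and no acetyltransferase gene did. Kat5 had a difference of -3.31 (SE 1.15, unadjusted p = 0.00566, limma adjusted p = 0.317), 1 of 505 genes (10.1%) under an unadjusted p-value of 0.05, of which 62 (1.24%) were lower with VC. With median-ratio scaling 179 of 399 were lower. Kat5 reached 1 RPKM mostly in embryos without VC, so that it entered this test mainly through the higher group. With its leading entry alone it reached 1 RPKM in 6 embryos, the fewest that the filter takes. With the lane as a term the difference was -3.03, and without single embryos it lay between -3.92 (without control replicate 2) and -2.61 (without TSA(0-8h) replicate 3). The other 5 differences with VC ran from -0.12 (Kat6a) to 1.72 (Kat7), with limma adjusted p-values of 0.693 to 0.984. A term for the interaction of TSA and VC, added after seeing the data, gave limma adjusted p-values of 0.880 to 0.981 for the 6 genes and passed none of the 4988 genes, with 287 under an unadjusted p-value of 0.05.

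Because the 3 control embryos were the lowest for Kat7, all 11 treated embryos were also set against them, a comparison chosen after seeing the values and therefore a description. The mean log2(RPKM + 1) of Kat7 was 4.38 against 0.49, a difference of 3.89. Neither a test nor the share of all genes without overlap is given for it. In this fit 9 of the 4988 genes (0.18%) passed the adjusted threshold, all of them higher in treated embryos and none of them an acetyltransferase gene. With limma-voom 6 genes passed, all of them lower, and again none was an acetyltransferase gene.

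**Figure D5:**
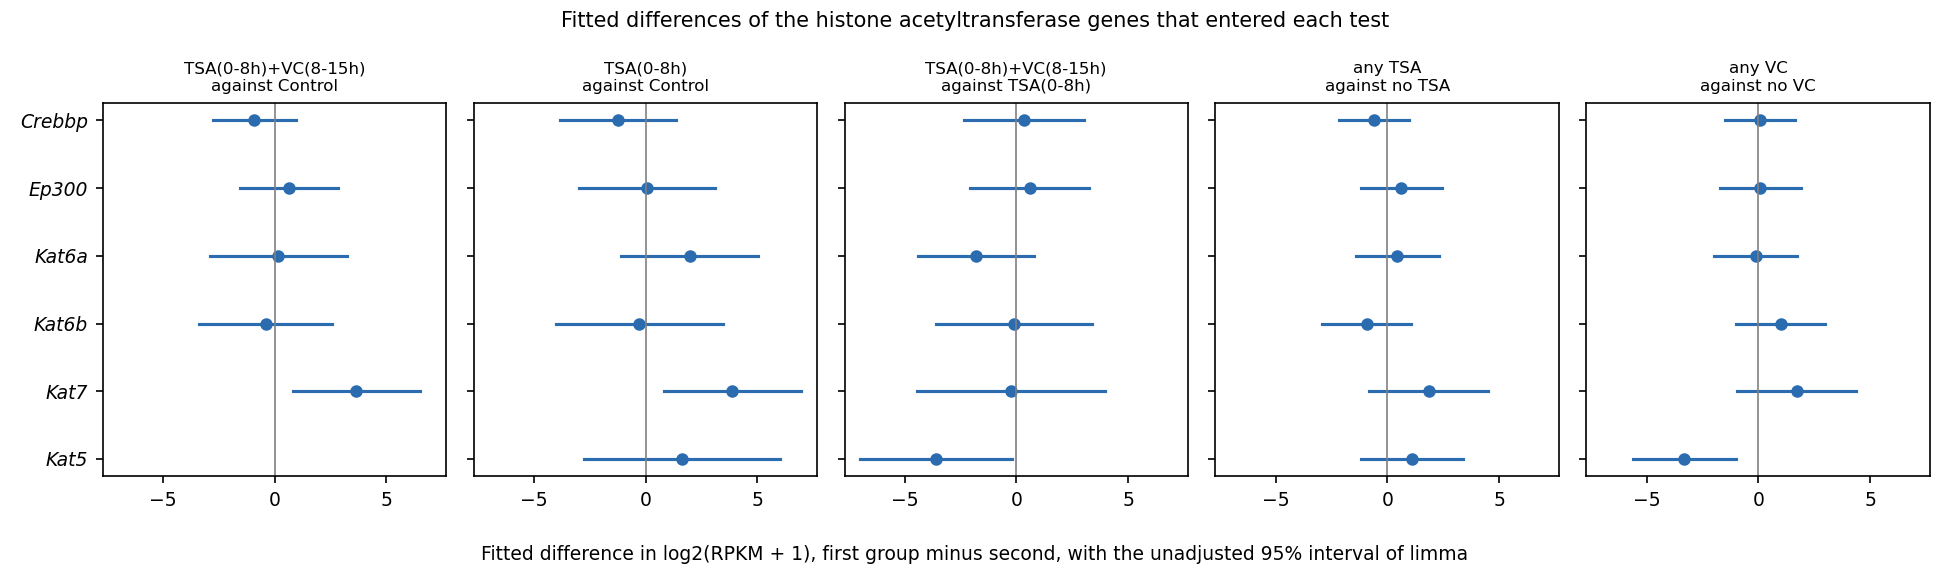
Fitted differences in log2(RPKM + 1) (x axis, first group minus second) with unadjusted 95% intervals of limma for the acetyltransferase genes that entered each of 5 comparisons (panels). Intervals that leave out 0 belong to Kat7 (2 comparisons with control embryos) and to Kat5 (2 comparisons of VC), and no difference passed the adjusted threshold. With a filter that ignores the groups, or with none, the intervals from 3 against 3 embryos all take in 0.

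The subunits that carry these enzymes, the readers of acetylated lysine and the enzymes of acetyl-CoA supply were looked at as lists, and no gene of any list passed the adjusted threshold in any of the 6 comparisons. Brd1, a Brpf-type scaffold of the HBO1 and MOZ complexes, was steady, between 118 and 249 RPKM in the 14 embryos, and was the 1 gene of 9 on its list read in all of them. The NuA4 scaffold gene Ep400 was at 6.69 to 135 RPKM in all 14 embryos, so that its RNA was read also where Kat5 was listed at 0. The proteins were not measured. The Hat1 partners Rbbp7 and Nasp were at 1.01 to 233 and 8.90 to 267 RPKM in all 14, although Hat1 was under 1 RPKM in 10 of them. Of 23 SAGA and ATAC subunits, 1 (Atxn7l3) was read in every embryo, at 1.26 to 146 RPKM, and Zzz3 was listed at 0 in all. Among 17 NuA4 subunits 5 were read in all embryos, as were 2 of 11 MSL and NSL subunits (Phf20 and Hcfc1) and 5 of 13 other acetyltransferases. No gene for acetyl-CoA supply was read in all embryos.

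After TSA(0-8h)+VC(8-15h), 14% of all genes tested had an unadjusted p-value under 0.05 and a higher level than the control embryos. This was so for 3 of the 7 SAGA and ATAC subunits tested, 2 of 5 MOZ, MORF and HBO1 subunits, 1 of 10 other acetyltransferases, 1 of 9 MSL and NSL subunits, none of 8 NuA4 subunits, none of 4 Hat1 partners and not for the 1 gene of acetyl-CoA supply. The genes that follow were picked for small p-values and groups that did not overlap, none passed the adjusted threshold, and each entered its test through the higher group alone, so that a difference was built into the choice. After TSA(0-8h)+VC(8-15h), the SAGA subunit Taf9 was at 108 to 395 RPKM against 0.302 to 7.11 in control embryos, a difference of 6.64 (SE 1.52, limma adjusted p = 0.111). Of the MOZ, MORF and HBO1 subunits, Brpf3 was at 27.0 to 73.3 RPKM against 0.195 to 20.1 and Jade2 was at 31.8 to 71.8 against 0.287 to 10.6. Brpf1 ran the other way between the TSA groups, at 0 to 4.04 RPKM with late VC against 24.4 to 30.1 with TSA(0-8h) alone, with a difference of -3.81 (SE 1.39, limma adjusted p = 0.138). Pdhb, a subunit of pyruvate dehydrogenase, was at 0.802 to 11.2 RPKM with TSA(0-8h) against 208 to 425 RPKM in control embryos and 94.0 to 388 with TSA(0-8h)+VC(8-15h). Its differences were -5.74 against control embryos (SE 1.63, limma adjusted p = 0.139) and 4.80 for the addition of VC (SE 1.55, limma adjusted p = 0.0997). Among other acetyltransferases, Gtf3c4, a TFIIIC subunit, was at 12.9 to 139 RPKM with TSA(0-8h)+VC(8-15h) and at 2.74 to 147 with TSA(0-8h), against 0.0413 to 1.88 in control embryos, with differences of 5.25 (SE 1.63, limma adjusted p = 0.111) and 3.68 (SE 1.48, limma adjusted p = 0.223).

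The genes whose pattern over the 14 embryos was most like that of the 3 most abundant acetyltransferase genes were sought among 1802 genes at 1 RPKM or more in at least 12 embryos. For Crebbp they were Snrpg (Spearman's rho 0.74), Fam91a1 (0.72) and Atp11a (0.67). For Ep300 they were Hic2 (0.85), Zfp532 (0.78) and Rfwd3 (0.75), and for Kat6a they were Itgav (0.79), Csnk1g3 (0.78) and Dennd6a (0.76). Among the acetyltransferase genes themselves, the strongest relation was that of Kat2b and Crebbp, with rho and r of -0.71, and the highest positive one was that of Kat2a and Kat8, with rho of 0.63 but r of -0.05. All these are descriptions over libraries that share lanes and differ in depth.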

How the data were processed

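Single-end 50 bp reads were trimmed, mapped to mm9 with TopHat2 (named in the submitters' processing notes) and counted on exons by the authors, who deposited RPKM values per RefSeq entry. The treatment of reads that match more than 1 gene is not given in the sources used here. Of 25650 entries, 25250 had a symbol in a RefSeq gene table (used for names only) and were summed to 20242 genes. Positions come from an annotation of the same build. Groups and replicate numbers follow the labels, and lanes the library identifiers. Reads were recovered from the RPKM steps with the smallest length that gave whole reads. This was found for 14531 of 14532 entries above 0 in 2 or more embryos (tolerance 1e-05). It was found for 17537 of 17538 entries above 0 in any embryo, but in 1 embryo a single value hardly limits the length. Recovered reads served for read numbers, counted lengths and limma-voom.

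Comparisons used limma 3.58.1 (R 4.3.3; lmFit, eBayes with trend) on log2(RPKM + 1), two-sided, with Benjamini-Hochberg adjustment over all genes tested at 0.05 and a filter at 1 RPKM in all 3 embryos of either group or in 6 of 14. The pseudocount of 1 understates differences of low genes. The steps were tested on simulated data. The members and lists were chosen with earlier results of these data known. All 10 members are named. Of other lists the genes with the smallest p-values are named as examples (with 3 against 3 embryos, those whose groups did not overlap), and genes read in all embryos, and Zzz3, were named after their values were seen. Alternatives were a pseudocount of 0.1, other filters, median-ratio scaling, the leading entry alone, the replicate number or lane as a term and leaving out each embryo, and, chosen after seeing the data, limma-voom, the interaction and the comparison of 11 treated embryos. Python 3.11.15 was used for other steps. Counts for the acetyl-lysine readers are not reported here.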

Additional observations from a re-analysis of the deposited data

Results flagged for a closer look

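Within the embryos with or without TSA, and with or without VC, the single embryo farthest from the others was sought for each of the 10 genes on the log2 scale, and 13 of 40 such tests (32.5%) found one by Dixon's criterion, against 36.6% of the same tests over all 11195 genes at 1 RPKM or more in any embryo. Chance flags about 1 in 20 where values are normal, which values with many zeros are not, and the 4 splits share the same 14 embryos. Groups of 3 embryos or fewer were not examined. Among the 8 embryos with TSA, Hat1 stood out high in TSA(0-8h)+VC(8-15h) replicate 3 (43.1 RPKM, next 0.980) and Kat8 in TSA(0-8h)+VC(0-8h) replicate 2 (1.68, next 0.511). In the same embryos Ep300 stood out low in TSA(0-8h) replicate 2 (14.2, next 52.9) and Crebbp in TSA(0-8h) replicate 1 (12.4, next 58.2). Among the 6 embryos without TSA, Kat2a was high in control replicate 3 (48.5, next 1.08).

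Among the 8 embryos with VC, Kat5 stood out high in TSA(0-8h)+VC(8-15h) replicate 1 (6.83 RPKM, next 1.54) and Kat8 in the VC(0-8h) embryo (56.1, next 1.68), while Ep300 stood out low in VC(8-15h) replicate 2 (7.27, next 52.9). Among the 6 embryos without VC, the high ones were control replicate 3 for Kat2a (48.5, next 3.22), TSA(0-8h) replicate 1 for Kat2b (63.2, next 1.69), control replicate 1 for Hat1 (193, next 1.85) and control replicate 2 for Kat8 (388, next 0.511), and Crebbp was low in TSA(0-8h) replicate 1 (12.4, next 133). High values alone stood out for Hat1, Kat2a, Kat2b, Kat5 and Kat8, and low values alone for Crebbp and Ep300. The former had medians of 0 to 0.941 RPKM over the 14 embryos, and a value cannot fall below 0, which leaves little room for a low one to stand out. Crebbp and Ep300 had medians of 121 and 72.5 RPKM.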

How the results depend on the processing

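No acetyltransferase gene passed the adjusted threshold in any of the 6 comparisons under the alternatives run, and the lowest limma adjusted p-values, both from limma-voom on recovered reads, were 0.0582 for Kat5 (TSA(0-8h)+VC(8-15h) against TSA(0-8h)) and 0.0589 for Kat7 (TSA(0-8h)+VC(8-15h) against control). Of 626 alternative values of single acetyltransferase genes, 586 kept their direction and their side of the threshold and 40 changed sign. None of these 40 belonged to a Kat7 difference from control embryos or to a Kat5 difference with VC. With 3 against 3 embryos, filters and the replicate block cannot change a difference, and such values are among the 586. As Kat7 did not overlap between treated and control embryos, leaving out an embryo or changing the pseudocount could not change its sign. With a filter of any 3 of the 6 embryos, or with no filter, no acetyltransferase gene had an unadjusted limma p-value under 0.05 with 3 against 3 embryos. With the former, the SE of Kat7 against control was 1.92 for TSA(0-8h)+VC(8-15h) (limma adjusted p = 0.615). For TSA(0-8h) it was 2.21 (limma adjusted p = 0.910). Depth limits values under 1 RPKM, and 3 embryos per group limit every comparison of single treatments. The cause of the changes below was not tested.

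The number of all genes passing the threshold depended on the settings. For TSA(0-8h)+VC(8-15h) against control it was 107 with a pseudocount of 0.1, 183 with a filter at 5 RPKM, 1 with the leading entry alone, 295 with limma-voom, and 0 to 75 without single embryos (75 without control replicate 2). For TSA(0-8h) against control it was 99, 107, 3 and 132 in the same order, 5 with a filter of any 3 of the 6 embryos, and 0 to 274 without single embryos (274 without control replicate 2). For TSA(0-8h)+VC(8-15h) against TSA(0-8h) it was 176, 213, 2 and 254, 3 with median-ratio scaling, and 0 to 295 without single embryos (201, 295 and 288 without TSA(0-8h)+VC(8-15h) replicates 1, 2 and 3). For TSA in all embryos it was 1 with a pseudocount of 0.1, 2 with the leading entry, 2 with limma-voom and 0 to 2 without single embryos. For VC in all embryos it was 2, 2 and 4 in that order, 4 with no filter, 0 with a filter at 5 RPKM, median-ratio scaling or the lane as a term, and 0 to 4 without single embryos. For all treated embryos against control it was 5 with no filter, 3 with median-ratio scaling, 6 with limma-voom (all lower, where the 9 of the main setting were all higher) and 6 to 15 without single embryos.

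Same-numbered embryos did not deviate together, with correlations of -0.047 to 0.054 between their deviations from the group means. With the replicate number as a block, 7, 5 and 168 genes passed in the comparisons of 3 against 3 embryos (in the order above), 0 for TSA, 0 for VC and 11 for all treated embryos, and no acetyltransferase gene did.

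Small differences changed sign. With median-ratio scaling, TSA(0-8h)+VC(8-15h) against control turned to -0.63 for Kat6a and -0.16 for Ep300, TSA(0-8h) against control to 0.16 for Kat6b (0.16 also with its leading entry alone), TSA(0-8h)+VC(8-15h) against TSA(0-8h) to -0.71 for Ep300 and -0.97 for Crebbp, VC to -0.63 for Ep300 and -0.62 for Crebbp, and all treated embryos to -0.12 for Ep300. With limma-voom, TSA(0-8h) against control turned to -0.29 for Ep300, TSA(0-8h)+VC(8-15h) against TSA(0-8h) to 0.065 for Kat6b and -0.35 for Crebbp, VC to -0.34 for Crebbp, and all treated embryos to -0.0042 for Ep300. Without single embryos, the differences ranged from -0.46 to 1.19 (Kat6a, TSA(0-8h)+VC(8-15h) against control), from -1.32 to 0.52 (Kat6b) and -0.65 to 1.04 (Ep300, both TSA(0-8h) against control), and, for TSA(0-8h)+VC(8-15h) against TSA(0-8h), from -0.93 to 0.91 (Kat6b), -1.77 to 1.10 (Kat7), -0.39 to 1.29 (Ep300) and -0.81 to 0.91 (Crebbp). They ranged from -0.0046 to 1.07 for Ep300 with TSA, from -0.51 to 0.24 (Kat6a), -0.46 to 0.60 (Ep300) and -0.55 to 0.29 (Crebbp) with VC, and from -0.091 to 0.45 for Ep300 in all treated embryos.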
